A study of Drosophila melanogaster with 103 samples.

Results

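The GATA factor genes of Drosophila melanogaster encode zinc finger transcription factors that bind DNA at GATA motifs. The 5 genes described here, pannier (pnr), serpent (srp), grain (grn), GATAe and GATAd, were taken by name out of 13946 protein-coding genes, and each was examined over its gene body plus 10 kb on each side in every peak list. They were profiled by chromatin immunoprecipitation followed by sequencing (ChIP-seq) in 103 libraries from 3 unperturbed cultured lines of the fly: 41 libraries of D17 (ML-DmD17-c3, derived from imaginal disc tissue), 41 of S2 (S2-DRSC, from embryos and with features of blood cells) and 21 of Kc167 (another embryonic line). Each antibody had 2 replicate libraries per line, from cells fixed in separate flasks, and each line had 1 input. The values are the authors' peaks, in 1 list per antibody and line: 20 lists in D17, 20 in S2 and 10 in Kc167. No list holds values per replicate, so differences between the lines are described here and not tested, and library depth is unknown. A line in culture stands for neither the tissue it came from nor a single developmental stage.

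GATA factors act in several lineages of the fly embryo and larva. Pannier patterns the dorsal ectoderm, the heart and the thorax, and its activity is held back by the cofactor U-shaped. Serpent is needed for blood cells, fat body and endoderm, GATAe acts after it in the endoderm and midgut, and Grain acts in the posterior spiracles and in neurons. Developmental regulators of this kind are frequent targets of Polycomb group (PcG) proteins, which keep genes silent: PRC2 (E(z), Pcl) sets H3K27me3, PRC1 (Pc, Ph, Psc) sets H2AK118ub1, and Pho, its partner Sfmbt and Spps take part in recruiting them to DNA. Trithorax (Trx) proteins act against this silencing, and H3K27ac, H3K4me3, H3K36me2 and H3K36me3 accompany active genes.

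On build dm6, 3 of the genes lie side by side on chromosome arm 3R within 55.6 kb. These are srp (Dmel_CG3992, 15986152 to 16004085), GATAe (Dmel_CG10278, 16009105 to 16019133) and pnr (Dmel_CG3978, 16026079 to 16041796). The gaps between them are 5.02 kb and 6.95 kb, so their 10 kb windows overlap and share peaks. The first gap holds a non-coding RNA gene, lncRNA:CR42839, and another, lncRNA:CR44133, lies within srp. grn (Dmel_CG9656) lies elsewhere on 3R, from 8147368 to 8181444, with no protein-coding neighbour within 10 kb. GATAd (Dmel_CG5034) lies on 2L, from 10333734 to 10339185, among 9 protein-coding neighbours within 10 kb, of which the nearest are SamDC at 0.271 kb and Cox10 at 0.604 kb. The gene table used gives no strand, so the ends of a gene are called its low-coordinate and high-coordinate end.

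The 5 genes fell into 3 kinds by the repressive mark H3K27me3. grn lay under it in every line, GATAe and pnr lay under it in D17 and Kc167 but not in S2, and srp and GATAd had none over the body in any line. Covered genes are those with 50% or more of the body under peaks. By that measure 3 of the 5 genes were covered in D17, against 7.65% of all protein-coding genes, 3 in Kc167 against 15.4%, and 1 in S2 against 16.1%. The covered share of pnr was 91.7% in D17, 100% in Kc167 and 0% in S2. For GATAe it was 92.6%, 100% and 0% in the same order. Few genes had this combination: 68 of the 13946 (0.488%) were covered in D17 and in Kc167 and had no base under H3K27me3 in S2, and 507 (3.64%) were covered in all 3 lines like grn. A body share at least 50 points higher in D17 than in S2 was found for 1.96% of genes, and one that much higher in Kc167 than in S2 for 6.50%. The absence of the mark from srp and GATAd in all 3 lines was shared with 70.0% of genes. The bar plot of body shares shows the 3 kinds beside the other marks.

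**Figure D1:**
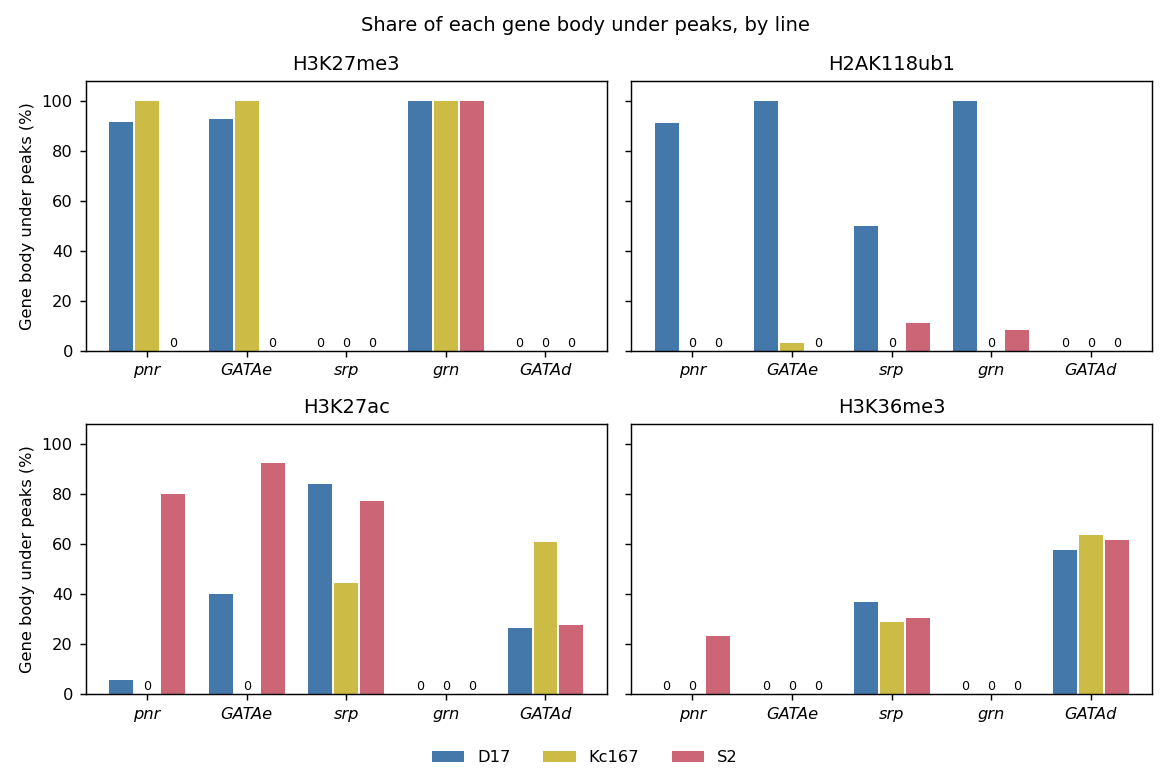
Share of each gene body (%, vertical axis) under peaks of H3K27me3, H2AK118ub1, H3K27ac and H3K36me3 for pnr, GATAe, srp, grn and GATAd, with 1 bar per line (D17, Kc167, S2) and 0 written where no base was covered. pnr and GATAe have H3K27me3 in D17 and Kc167 and broad H3K27ac in S2, grn has H3K27me3 in all lines and no H3K27ac, and GATAd has H3K36me3 over 57.7% to 63.6% of its body.

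In D17 and in Kc167, a single H3K27me3 peak ran across GATAe and pnr together. The D17 peak was 30.6 kb wide, with a fold over background of 1.60 in the authors' list. That fold stood at the 74.8th percentile, which is the share of the peaks of that list with the same or a lower fold. It began 0.738 kb inside GATAe and ended 1.31 kb short of the high-coordinate end of pnr. The Kc167 peak was 38.0 kb wide, with a fold of 3.00 at the 99.9th percentile of its own list. It began 0.646 kb past the high-coordinate end of srp and ended 0.963 kb beyond pnr. Thus the Kc167 peak took in 87.1% of the gap between srp and GATAe, while the D17 peak had no base there. Both peaks held GATAe and pnr and no other protein-coding gene. In S2 the nearest H3K27me3 peaks lay 54.0 kb below srp and 32.8 kb above pnr. No H3K27me3 list skips a peak number in the window of any of the 5 genes.

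The PRC1 mark H2AK118ub1 was wide over these genes in D17 and nearly missing from them in the other lines. In D17 it covered 100% of GATAe, 91.4% of pnr, 100% of grn, 50.0% of srp (8.96 kb in 1 peak, just under the 50% limit before rounding) and none of GATAd. So 3 of the 5 genes were covered in D17, against 26.3% of all genes, and none in Kc167 or S2, against 9.87% and 11.3%. pnr, GATAe and grn each had a share at least 50 points higher in D17 than in the other lines, as had 20.3% of all genes against Kc167 and 16.1% against S2. The D17 peak over GATAe and pnr was 35.3 kb wide, at the 98.5th percentile by fold. It began within the gap after srp, 3.93 kb before GATAe. In Kc167 a 4.01 kb peak lay mostly in that gap and covered 3.15% of GATAe. In S2 short peaks covered 10.98% of srp and 8.25% of grn. The Kc167 H2AK118ub1 list skips 1 peak number in a stretch of 347 kb around grn and 1 in a stretch of 320 kb around srp, so 0% there does not show that no peak was called. The D17 list skips 1 in a stretch of 48.5 kb that reaches into srp. The D17 share of srp, and with it the D17 count of 3, are then the least they can be.

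Over the same stretch, S2 carried several marks of active genes. H3K27ac peaks covered 92.4% of GATAe and 79.9% of pnr in S2, against 40.2% and 5.67% in D17 and 0% for both in Kc167. Between the low-coordinate end of GATAe and the high-coordinate end of pnr, S2 had 10 H3K27ac peaks. The widest was 10.7 kb, over part of GATAe and most of the gap before pnr, and its fold of 7.93 stood at the 97.1st percentile. D17 had 8 H3K27ac peaks there, all with low folds: they ran from the 0.211th to the 31.3rd percentile of the list. Kc167 had 0. H3K36me2, profiled in D17 and S2, covered 100% of GATAe and 90.1% of pnr in S2 and none of either in D17. With srp, 3 of the 5 genes were covered by it in S2, against 43.8% of all genes, and 0 in D17, against 15.0%. Such a difference of at least 50 points between these lines was common, since 30.9% of all genes had more H3K36me2 in S2 by that margin. H3K4me3 covered 30.7% of pnr in S2 and 0% in D17, and none of GATAe in either. The highest S2 H3K4me3 fold over pnr stood at the 30.1st percentile. The S2 H3K36me2 fold stood at the 58.2nd percentile over GATAe and the 45.1st over pnr. H3K36me3 covered 23.2% of pnr in S2, in a 3.65 kb peak near its high-coordinate end, and none of pnr in D17 or Kc167. It covered none of GATAe in any line.

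**Figure D2:**
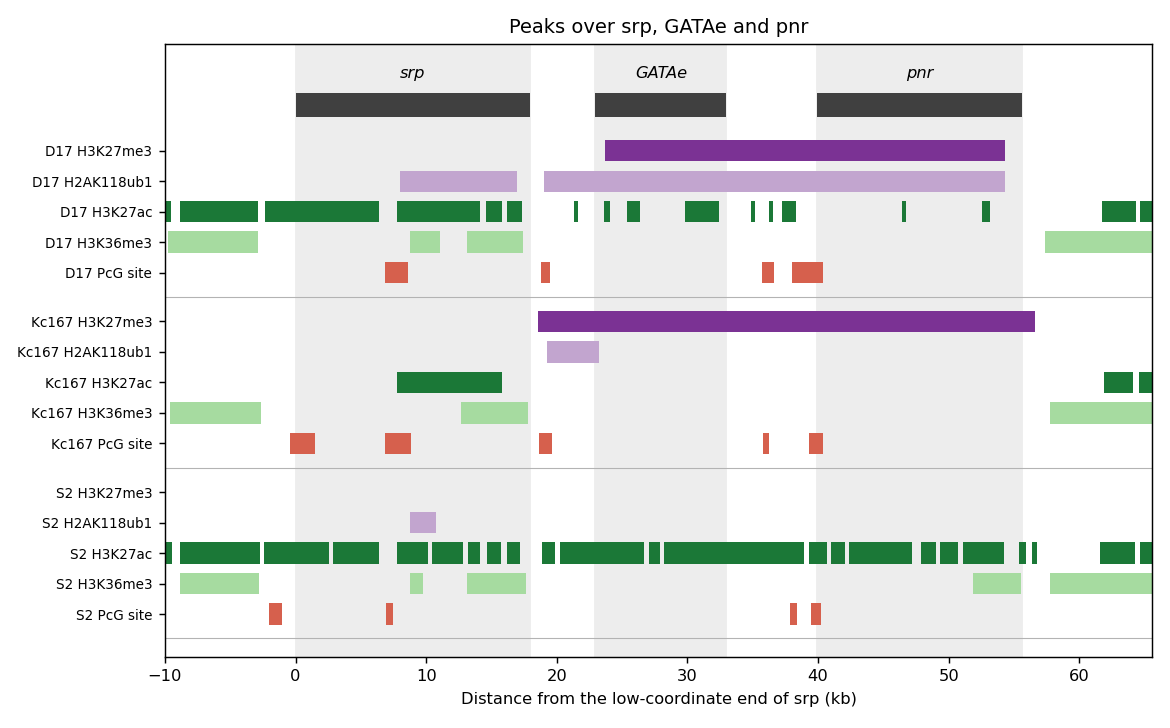
Peaks of 4 histone marks and the PcG sites of each line along the stretch holding srp, GATAe and pnr (dark bars at the top, shaded below), with distance from the low-coordinate end of srp in kb on the horizontal axis. H3K27me3 spans GATAe and pnr in D17 and Kc167, starting nearer to srp in Kc167, while H3K27ac fills the same stretch in S2. Peaks are cut off at the limits of the plot, and those under 0.25 kb are drawn at that width.

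Beyond pnr, H3K36me3 and H3K27ac peaks lay at like positions in the 3 lines, while H3K36me2 lay there in S2 and not in D17. An H3K36me3 peak began 17.4 kb from the low-coordinate end of pnr in D17 and 17.9 kb from it in Kc167 and in S2, beyond the high-coordinate end and toward Jhbp4, Jhbp5, IKKbeta, CG5013 and msps. H3K27ac peaks near msps lay in the window in all lines. The highest TrxN fold in the window of pnr also stood there, 23.6 kb from the low-coordinate end of pnr in D17 (96.5th percentile) and 23.5 kb from it in S2 (98.3rd percentile). These values of the window belong to the neighbours and not to the body of pnr, where TrxN peaks near the low-coordinate end stood at the 9.30th percentile in D17 and the 58.0th in S2.

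srp showed the reverse of grn. Its body had no H3K27me3 in any line, and H3K27ac peaks covered 84.2% of it in D17, 44.5% in Kc167 and 77.2% in S2. In D17 the H3K27ac peak over its low-coordinate end was 8.75 kb wide with a fold of 11.6, which ranked 5th among the 12299 peaks of that list. The peak over the same end in S2 had a fold of 11.8, at the 99.4th percentile. The 1 Kc167 H3K27ac peak in the window ran from 7.80 kb to 15.8 kb, at the 91.4th percentile. The Kc167 list shows no peak at the low-coordinate end, but it skips 1 peak number in a stretch of 26.8 kb that takes in this end, so 44.5% is the least its share can be. H3K36me3 covered 36.7% of srp in D17, 28.7% in Kc167 and 30.4% in S2. H3K36me2 covered 24.6% in D17 and 83.4% in S2, and H3K4me3 28.3% and 12.4%. In D17, H2AK118ub1 and H3K27ac peaks thus lay over the same gene. Counted by at least 1 H3K27ac peak in the body, 4 of the 5 genes (all but grn) had the mark in D17, against 54.0% of all genes, 2 (srp and GATAd) in Kc167 against 50.7%, and 4 (all but grn) in S2 against 50.5%.

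On the low-coordinate flank of srp, 40 of the 50 lists skip a peak number within stretches that share 7.02 kb, 9.75 kb from srp and reaching into the gene Hel89B. Whether a peak was called there is not known. In 12 of the lists the stretch reaches into srp, among them Kc167 H3K27ac, D17 and S2 H3K4me3, D17 Psc and D17 H2AK118ub1, and the covered shares of srp in these lists are then the least they can be.

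grn had the same H3K27me3 state in the 3 lines, while its H2AK118ub1 differed. Its body was covered by H3K27me3 completely in each line, by a peak of 65.5 kb in D17, 76.3 kb in Kc167 and 76.1 kb in S2. The folds of these peaks stood at the 96.9th, 98.5th and 98.6th percentile of their lists. All began about 5.9 kb before grn, and their low-coordinate edges lay within 42 bp of each other. In Kc167 and S2 the high-coordinate edges lay 129 bp apart. In D17 the peak ended 25.5 kb beyond grn, against 36.3 kb in Kc167 and 36.1 kb in S2. The only other protein-coding gene within it was CheA84a in each line. Just below the shared edge lie 6 tRNA genes. In D17 and Kc167 a second H3K27me3 peak lay on their other side, and gaps of 2.15 kb and 2.04 kb between the peaks held all 6. In S2 there was no such second peak near, and the next one below lay 57.8 kb from grn.

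No H3K27ac, H3K4me3, H3K36me2 or H3K36me3 peak was listed in the window of grn in any line profiled. The exception among the marks of active genes was H3K4me2, with 8 peaks in D17 and 1 in S2. The highest D17 fold, at the 76.0th percentile, and the S2 peak, at the 22.6th, both had their summit 34.5 kb from the low-coordinate end of grn. This is also where PcG proteins were found. H2AK118ub1 covered 100% of grn in D17, in a 75.6 kb peak, and 8.25% in S2, in a 2.81 kb peak.

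**Figure D3:**
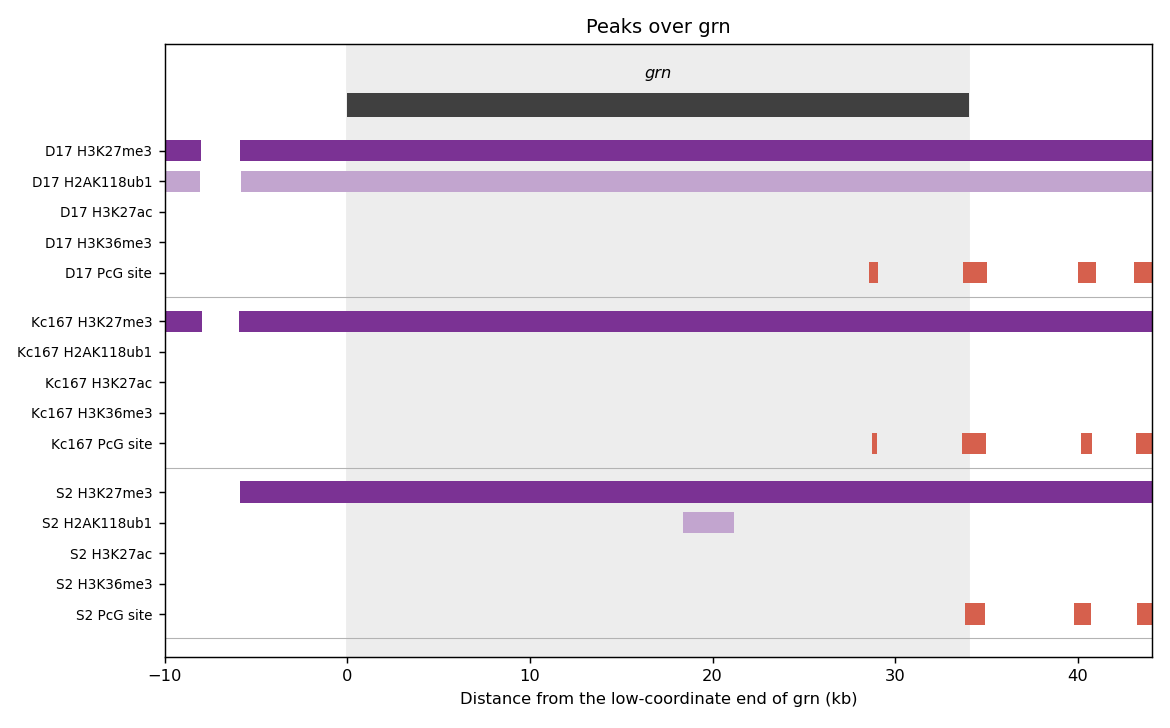
Peaks of 4 histone marks and the PcG sites of each line along grn (dark bar), with distance from its low-coordinate end in kb on the horizontal axis. H3K27me3 covers the gene in all 3 lines from nearly the same edge, and H2AK118ub1 does so in D17. PcG sites lie at and beyond the high-coordinate end in each line, and in D17 and Kc167 also within the gene, from 28.6 kb. Peaks run on past the plot where they reach its limits.

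PcG proteins met at discrete places around 4 of the 5 genes. A PcG site was defined as a Ph peak that shared at least 1 bp with peaks of Pc, Psc and Pho in its line, with sites within 1 kb merged. D17 had 485 such sites, Kc167 2068 and S2 573. The same 4 genes (pnr, srp, GATAe and grn) had a site in the window in every line, and GATAd had none. GATAe had no site within its body in any line, and in S2 it was counted only through the sites at the low-coordinate end of pnr. The share of all genes with a site in the window was 5.08% in D17, 41.3% in Kc167 and 7.97% in S2, so the count in Kc167 stands nearest to its background. Across the lines the sites fell at 9 places, of which 5 were a site in all 3 lines: 3 at grn, 1 within srp and 1 at the low-coordinate end of pnr.

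The strongest were at grn. At the place from 33.6 kb to 35.0 kb, at the high-coordinate end of the gene, Pho stood at or above the 99.4th percentile in each line and its summit was at the same base in all 3 lines. The summits of Spps there differed by 1 bp, those of Ph by 11 bp and those of Psc by 14 bp. Peaks of all 9 PcG and recruiter proteins were present in D17 and in S2, and of all 5 profiled in Kc167, with a median percentile of 99.5, 99.7 and 99.7 in D17, Kc167 and S2. E(z) stood at the 73.8th percentile in D17 and the 99.0th in S2, the widest difference between lines among them. A further place from 43.1 kb to 44.3 kb was nearly as strong, with Pho at or above the 99.4th percentile, Ph at or above the 98.0th, and Pho summits within 10 bp. A single Pc peak ran over both places in each line, ranking 4th of 2529 in D17, 11th of 6298 in Kc167 and 4th of 2387 in S2. Between them, the place at 39.8 kb to 41.0 kb, under the same Pc peak, had weaker folds of the other proteins, with Ph from the 12.4th percentile (S2) to the 60.4th (D17). The place at 28.6 kb to 29.1 kb was a site in D17 and Kc167 and lacked a Pho peak in S2. All 4 places at grn lay under H3K27me3 and not H3K27ac in every line.

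The place within srp, 6.81 kb to 8.82 kb from its low-coordinate end, had the same proteins but another mark over part of it. H3K27ac overlapped it and H3K27me3 did not, in all 3 lines. Summits of Ph, Pho, Psc and Spps lay outside the listed H3K27ac peaks. Their medians over the lines ran from 7.116 kb (Pho) to 7.217 kb (Ph). In D17 the H3K27ac peaks ended at 6.393 kb and resumed at 7.797 kb, and in S2 at 6.382 kb and 7.771 kb. In Kc167 the peak began at 7.795 kb, after a stretch where that list skips 1 peak number. Pho stood at the 95.0th percentile in D17, the 95.9th in Kc167 and the 92.8th in S2, with summits within 11 bp, and Ph stood at the 90.7th, 97.1st and 94.6th. Spps stood at the 99.2nd, 99.9th and 98.9th percentile, ranking 8th among 9661 peaks in Kc167. TrxC, an antibody to Trithorax, was at the 99.0th, 99.7th and 97.2nd. GAF, a factor that opens chromatin, was at the 89.9th percentile in D17 and the 94.5th in S2. Neither was limited to srp. TrxC in D17, Kc167 and S2 stood at the 95.5th, 95.7th and 92.5th percentile at the grn place from 33.6 kb. It stood at the 94.3rd, 93.9th and 93.0th at that from 43.1 kb. At the low-coordinate end of pnr it stood at the 98.9th, 92.5th and 98.5th. GAF, in D17 and S2, stood at the 47.4th and 44.0th, 59.6th and 57.8th, and 65.58th and 85.4th at the same places in order. The weaker grn places had no TrxC peak. Peaks of 18 of 20 lists in D17, 7 of 10 in Kc167 and 19 of 20 in S2 lay over the place within srp, the most of the 9 places in D17 and in S2. A second place at srp, from 2.02 kb before its low-coordinate end to 1.46 kb inside, was a site in Kc167 and S2, which did not overlap there but lay within 1 kb of each other. It had H3K27ac in D17 and S2 and neither mark in the Kc167 lists. The skipped numbers of the D17 Psc and Kc167 H3K27ac lists fall in stretches that include this place.

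The place at the low-coordinate end of pnr was a site in every line while the marks over it differed. In D17 it was overlapped by both H3K27me3 and H3K27ac, in Kc167 by H3K27me3 alone and in S2 by H3K27ac alone. The D17 H3K27ac peak was weak, at the 7.15th percentile, and ran from -2.661 kb to -1.639 kb relative to that end of pnr. It thus lay apart from the summits of Ph, Pho, Psc and Spps. Their medians over the lines ran from -0.168 kb (Ph) to -0.125 kb (Spps). Pho stood at the 93.7th percentile in D17, the 98.4th in Kc167 and the 89.8th in S2. For Spps these were the 98.7th, 99.5th and 99.6th, and for Ph the 86.0th, 95.7th and 91.4th. In S2 the PRC1 subunits Pc and Psc ranked lower in their lists, at the 73.2nd and 47.4th percentile, against the 95.6th and 93.6th in D17 and the 98.9th and 91.1st in Kc167. The summits differed by at most 41 bp between lines for Ph, 33 bp for Pho, 30 bp for Psc and 17 bp for Spps.

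Both other places of the cluster were sites in D17 and Kc167 and not in S2. The first lay in the gap between srp and GATAe, 18.6 kb to 19.6 kb from the low-coordinate end of srp and at the edge of the Kc167 H3K27me3 peak. Pho there stood between the 87.0th and the 98.2nd percentile over the 3 lines, and S2 had no Psc peak. The second lay 12.7 kb to 13.6 kb from the low-coordinate end of GATAe, in the gap before pnr. Of the 9 PcG and recruiter lists, 8 had a peak over it in D17 and 2 in S2. In both places S2 had H3K27ac and no H3K27me3.

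**Figure D4:**
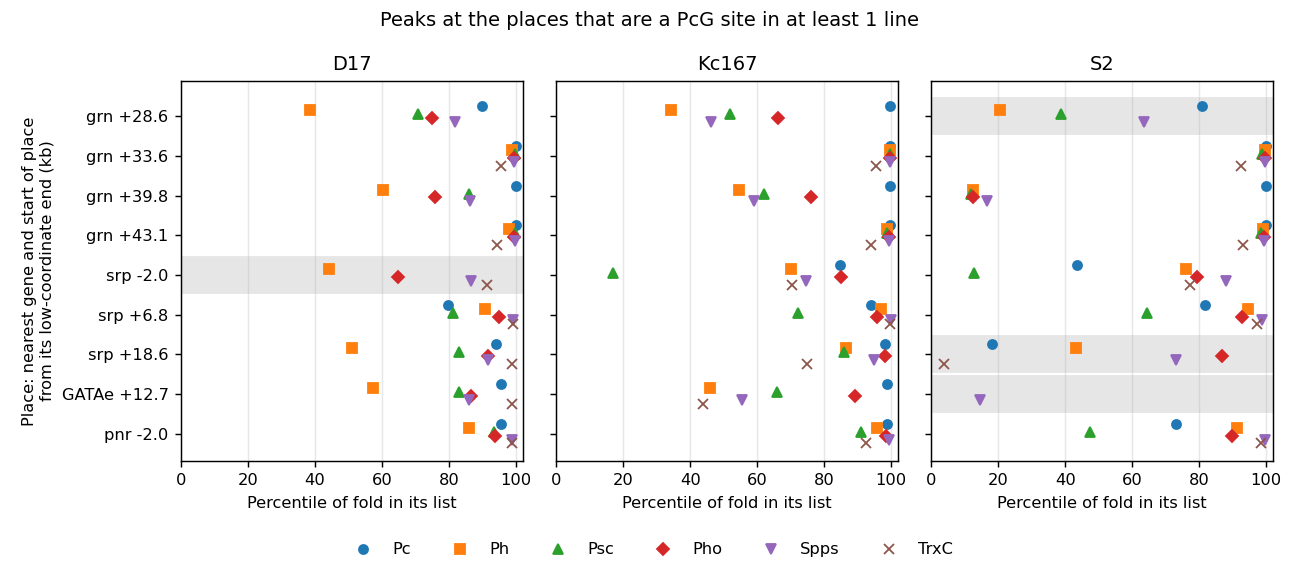
Percentile of the highest fold in its list (horizontal axis) for Pc, Ph, Psc, Pho, Spps and TrxC peaks over the 9 places, with 1 panel per line. Rows give the nearest gene and where the place starts from its low-coordinate end in kb. Grey rows are places that were not a site in that line, and no symbol means no peak. Symbols at grn +33.6 and grn +43.1 sit near 100 in each line.

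Pc and TrxC also spread beyond these places. Pc covered 90.2% of GATAe and 84.0% of pnr in D17, 93.3% and 80.8% in Kc167, and 0% and 2.72% in S2. A D17 TrxC peak of 23.5 kb ran from the gap after srp across GATAe and into pnr, at the 98.9th percentile by fold and the 99.6th by width. In D17, TrxC peaks covered 100% of GATAe and 81.4% of pnr, while in Kc167 and S2 they covered none of GATAe and 1.83% and 3.54% of pnr. Thus in D17 most of the stretch under H3K27me3 was also under TrxC. TrxC was not limited to that stretch. In D17 it covered 71.6% of srp and 91.9% of the gap after srp, where H3K27me3 covered 0%. In Kc167 and S2 it covered 42.4% and 5.83% of srp. At grn, wholly under H3K27me3, the widest D17 TrxC peak was 3.08 kb.

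Over the 5 common places, the median distance between the outermost summits of the 3 lines was 41 bp for Ph, 11 bp for Pho, 17 bp for Spps and 19 bp for Psc. Over the 264 places of the genome that were sites in all lines it was 25 bp for Ph, 20 bp for Pho and 24 bp for Psc, and 20 bp for Spps over 263. For these 4 proteins the largest span at the 5 places was 380 bp, for Pho at the weak place of grn. Pc, which had a single peak over the 3 common places of grn in each line, had a median span of 9500 bp at the 5 places, against 125 bp over the 264.

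The line-limited antibodies gave few peaks of high rank inside the genes. Engrailed (En), a homeodomain repressor profiled in D17, had peaks in the windows of 2 of the 5 genes, against 25.4% of all genes. At srp its 2 peaks stood at the 82.8th and 80.9th percentile, and the second lay within the place in the body. At grn the highest of 3 stood at the 87.8th percentile, over the place at 39.8 kb. The cohesin subunit Rad21, profiled in S2, had peaks in the windows of all 5, against 75.5% of all genes. Its highest fold in the window of pnr stood at the 97.9th percentile, near msps, and another within pnr at the 92.0th percentile.

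GATAd differed from the other 4 genes in each line. H3K36me3 covered 57.7% of its body in D17, 63.6% in Kc167 and 61.5% in S2. This made it the 1 covered member of the 5 in each line. Of all genes, 45.7%, 42.4% and 41.7% were covered. These shares lay at different ends of the gene. The D17 peak ran from -2.06 kb to 3.15 kb relative to the low-coordinate end. The Kc167 and S2 peaks began at 1.99 kb and 2.10 kb and ran on past the high-coordinate end, to 11.1 kb in both. An H3K27ac peak lay over the low-coordinate part of the body in each line, at the 92.4th percentile in D17, the 97.0th in Kc167 and the 90.8th in S2. In Kc167 this peak was wider, starting 2.21 kb before the gene, on the side of Cox10. H3K4me3 covered 31.3% of the body in D17 and 41.4% in S2. H3K27me3 was far away, the nearest peak lying 179 kb from it in D17, 120 kb in Kc167 and 38.8 kb in S2. PcG and recruiter peaks in its window were absent in D17 (0 of 9 lists), present in Kc167 in 5 of 5 lists at the 43.4th to 63.8th percentile, and present in S2 in 4 of 9, from the 4.05th to the 72.9th. In so dense a stretch, peaks in the window cannot be given to GATAd over its neighbours.

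**Figure D5:**
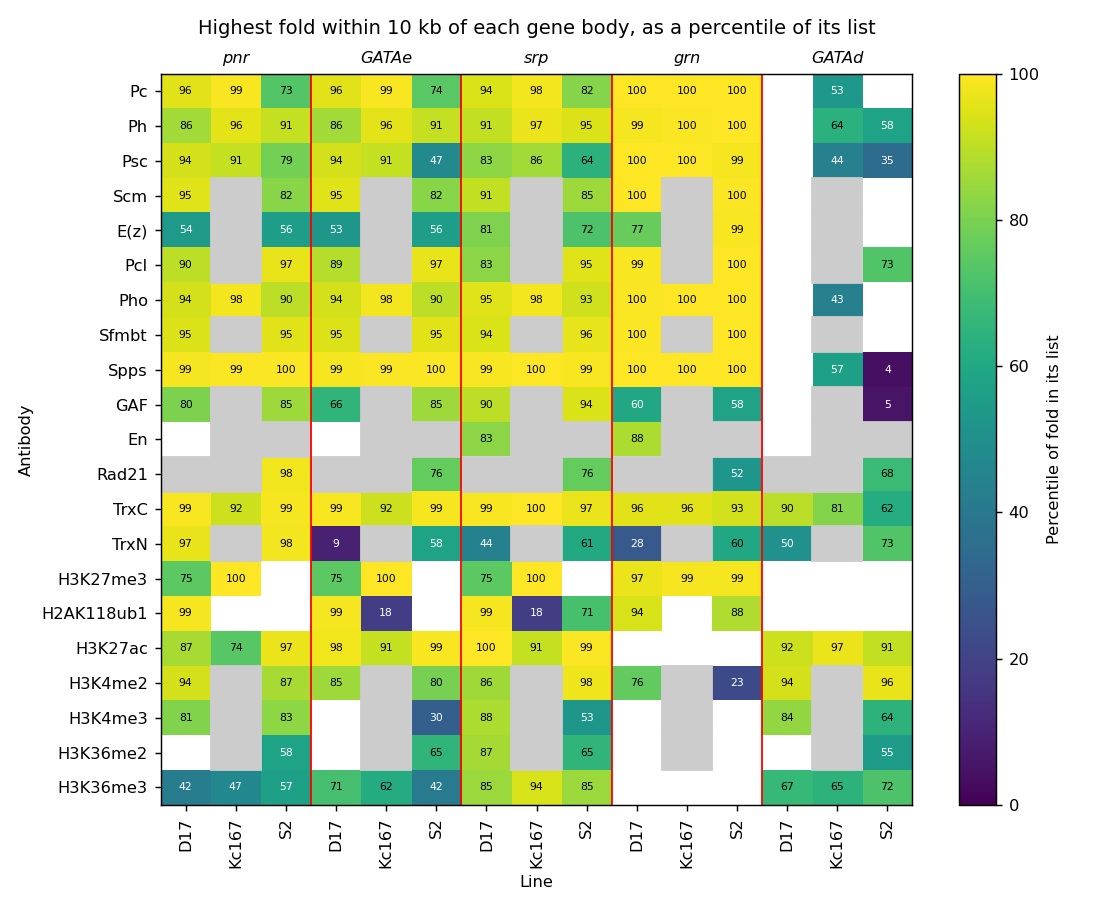
Highest fold within 10 kb of each gene body, as a percentile of its list, rounded to whole numbers, for 21 antibodies (rows) and the 3 lines under each gene (columns). Grey cells were not profiled in that line and white cells have no peak in the window. The PcG and recruiter rows are near 100 at grn in most cells and mostly blank at GATAd. The windows of pnr, GATAe and srp share peaks.

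Counted over the lists, the window of srp held peaks in 20 of 20 lists in D17, 10 of 10 in Kc167 and 19 of 20 in S2. For pnr these counts were 18, 9 and 18, for GATAe 17, 10 and 18, for grn 16, 7 and 16, and for GATAd 6, 8 and 13. The median protein-coding gene had peaks in 10, 8 and 13 lists. Genes differ in length, and srp and grn are longer than 91.8% and 95.9% of protein-coding genes, which gives them larger windows. The windows of srp, GATAe and pnr also share peaks. Within the body alone, GATAe had peaks in 9, 4 and 4 lists in D17, Kc167 and S2. For pnr the body counts were 16, 7 and 18, for srp 19, 8 and 19, for grn 15, 7 and 15, and for GATAd 6, 8 and 10.

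Genes that work with the GATA factors were examined as lists. Of all genes, 7.65% in D17, 15.4% in Kc167 and 16.1% in S2 were covered by H3K27me3, and the median body share was 0% in each line. Of 10 GATA partners, 6 were covered by H3K27me3 in D17, 6 in Kc167 and 7 in S2. The cofactor gene ush had no H3K27me3 in any line and H3K27ac peaks in the body in all 3, like srp, while the T-box genes Doc1, Doc2 and Doc3 and the heart gene tin were covered completely in all 3. Hand, a heart and blood cell factor gene, was covered in S2 (79.1%) and had 0% in D17 and Kc167, the opposite of pnr. Of 13 dorsal and thoracic genes, 7, 6 and 7 were covered in D17, Kc167 and S2. Among them the signal gene dpp was covered in D17 (82.7%) and in S2, with 19.6% in Kc167. Of 15 blood genes, 5, 6 and 6 were covered. The glial and blood cell factor gene gcm was covered completely in D17 and S2 and not at all in Kc167, and the scavenger receptor gene eater was covered in Kc167 (80.8%) and had 0% in the other lines. NimC1, a phagocytosis receptor gene, had 62.6% in S2 and 0% elsewhere, and the prophenoloxidase gene PPO1 had 100% in Kc167 and 0% elsewhere. Of 13 gut and fat body genes, 6, 8 and 8 were covered. The terminal gap gene hkb had 100% in S2 alone, the larval serum protein gene Lsp2 84.2% in Kc167 alone, and Adh 100% in Kc167 and in S2. None of these 51 entries, in which lz and ush each stand in 2 lists, had the pattern of pnr and GATAe, with coverage in D17 and Kc167 and 0% in S2.

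The genes closest to each GATA gene in broad-mark pattern were found by the mean absolute difference in body share over the 11 broad lists. Genes whose body plus 10 kb overlapped that of the GATA gene were left out, so GATAe was not compared with pnr or srp. For GATAe the closest of the rest were CG11741 (0.955 points), worniu (wor, 1.63), which encodes a Snail family factor of neural stem cells, and CG17560 (2.83). For pnr the same 3 genes came first, in the order wor (3.87), CG11741 (4.55) and CG17560 (4.62). For grn they were salr (0.624), cad and drm (both 0.750, a distance shared by 67 genes). For GATAd they were Hsc70-4 (0.314), CG8924 (0.561) and Jra (0.711). The nearest to srp were farther away, with CG12576 at 5.55 points, EDTP at 5.83 and csw at 6.73.

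As a check of the line labels, H3K27ac peaks lay in the body of 5 of 13 blood cell markers in D17, 4 in Kc167 and 8 in S2. For 9 imaginal disc markers the counts were 6, 2 and 3. Over all genes the share was 54.0% in D17, 50.7% in Kc167 and 50.5% in S2, so these counts say little about the labels. H3K27me3 covered 6, 7 and 8 of the 9 disc markers, and 3, 4 and 4 of the 13 blood cell markers. Of all genes it covered 7.65% in D17, 15.4% in Kc167 and 16.1% in S2. No expression values were used here.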

How the data were processed

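ChIP-seq libraries of 3 lines were analysed as 50 deposited peak lists, 1 per antibody and line. The authors' tools were, per the submitters' processing notes, Trim Galore 0.6.4, Bowtie2 2.3.5.1, SAMtools 1.13, MACS2 2.2.6 and bedtools 2.29.2 with build BDGP6 (dm6); how replicates and input entered a list is not given in the sources used here. Each deposited peak has a score, a fold (a ratio over background, lowest value 1.5), and a p-value and a q-value as −log10, of which the −log10 p column of the 50 lists was not used; narrow peaks also have a summit offset. Scores were 10 times the −log10 q, to within 1, for all 227654 deposited peaks. No test or interval over replicates was possible, and library depth is not known. Peak names carry numbers, and a missing number between neighbours was recorded as skipped.

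Gene bodies came from RefSeq (assembly Release 6 plus ISO1 MT), matched by symbol, letter case aside, for all 5 genes and all listed genes. Windows added 10 kb on each side, and overlap meant at least 1 bp. Body shares used merged peaks. Folds were ranked within a list and not compared in size between lists. All 5 genes are named, with listed genes where coverage differed by at least 50 points or that serve as examples. The 3 genes most alike to each by broad marks are also named, leaving out genes with an overlapping window. The members and lists were chosen with earlier results of these data known. Interval functions were tested on simulated intervals. Coverage equalled a base-by-base count for 300 of 300, and 60 of 60 planted PcG sites were found. Window counts were checked against bedtools 2.31.1 (250 of 250 counts equal). Computations used Python 3.11.15, NumPy 2.4.6, pandas 2.3.3 and matplotlib 3.10.9. Sequencing reads, expression and DNA sequence were not used here.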

Additional observations from a re-analysis of the deposited data

How the results depend on the processing

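No paired analysis was possible because each list holds 1 value per peak and none per replicate, so neither a replicate block nor leaving out a replicate could be run. Of 73 recomputed counts of members per line, 55 were within 1.5 times the reported count. The H3K27me3 counts (3, 3 and 1 in D17, Kc167 and S2) and the PcG site counts (4 in each line) were so under every alternative tried. The PcG site counts were not all unchanged, since with the gene body alone GATAe had no site in any line. With any base of the body in place of 50%, H2AK118ub1 members rose from 0 to 1 in Kc167 and from 0 to 2 in S2. H3K36me3 members, reported as 1 in each line, were 2, 2 and 3 at 20% of the body and with any base, 0 in each line at 80%, and 0 in Kc167 and S2 with the higher-scoring 50% of each list. H3K27ac members in D17 fell from 4 to 2 within 500 bp of either gene end, with the higher-scoring 50% of the list and with lists of equal length. In Kc167 they were 4 rather than 2 with 10 kb each side, and 1 near the gene ends. Leaving out members at a skipped peak number of the Kc167 H2AK118ub1 list, an alternative chosen after seeing the data, left that count at 0. Of single values, 106 of 205 percentiles moved beyond a binomial interval when ranked within the chromosome arm, by at most 9.55 points. By a like interval, 33 of 55 body shares moved when the 10 kb flanks were included, by at most 36.3 points. These intervals treat the peaks of a list, or the bases of a gene body, as independent draws, which they are not. Both counts are therefore no measure of sampling error. Of 150 peak counts, 72 were lower when windows were cut halfway to a neighbouring member. The cause of these changes was not tested. Depth is unknown, so a missing peak may be one below the authors' limits.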
